A study of Homo sapiens with 12 samples.

Results

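Squamous differentiation genes of the S100A, SPRR, KLK and SERPINB families were followed in 2 human bladder cancer cell lines after knockdown of KMT9α, the histone methyltransferase encoded by N6AMT1. The set held every gene whose symbol in the count tables belongs to the families S100A (16 genes), SPRR (11), KLK (15) or SERPINB (13), together with IVL, TGM1, CSTA, CRNN and RHCG. These 60 genes were 60 of the 23064 gene symbols in the tables, and the rule used names alone, although it was set with earlier results of these data known.

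RNA-seq had been run on 12 libraries, 3 for each line and siRNA. CAL-29 and 5637 are established lines from bladder carcinomas, each grown as a single line with no genetic change made for the experiment. Cells received either a control siRNA (siCtrl) or 1 siRNA against KMT9α (siKMT9α, called si270 in the tables), and RNA was taken at day 3. The study's methods give a different transfection reagent and siRNA concentration for each line, so these cannot be told apart from the line. The labels do not say whether libraries of a group came from separate cultures, and p-values then measure only the spread between these libraries. With 3 libraries against 3, an exact two-sided permutation test cannot go below p = 0.1, so tests came from edgeR models fitted across all genes.

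Squamous differentiation is the programme by which stratified epithelia build a tough outer layer. Transglutaminases such as TGM1 cross-link involucrin (IVL), the SPRR proteins and other precursors into the cornified envelope, S100A proteins bind calcium and act both inside the cell and as secreted alarm signals, kallikreins (KLK) cut the junctions between shed cells, and SERPINB and cystatin proteins inhibit proteases. Normal urothelium does not cornify, but part of bladder cancers carries basal and squamous genes of this kind.

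N6AMT1 itself, the target of the siRNA, was at 11.4, 10.2 and 9.65 CPM (the gene's counts relative to the scaled total of its library) in the CAL-29 siCtrl libraries and at 2.82, 2.91 and 1.97 CPM with siKMT9α. In 5637 it was at 13.4, 13.2 and 13.3 CPM with siCtrl and at 3.77, 2.22 and 2.58 CPM with siKMT9α. Every knockdown library was below every control library, and the fall was 3.99-fold in CAL-29 (edgeR quasi-likelihood test, adjusted p = 1.38e-10) and 4.65-fold in 5637 (adjusted p = 2.06e-15). Libraries held between 24479349 and 35151257 counts. The lines' epithelial markers (11 genes, among them EPCAM, CDH1 and KRT18) summed to 13294 to 13972 CPM in CAL-29 siCtrl and to 8776 to 9205 CPM in 5637 siCtrl. The knockdown libraries had 6398 to 6548 and 6075 to 6288 CPM of these markers. In bulk RNA, fewer cells of a type and less RNA per cell cannot be told apart.

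The promoters of 7 members are shown first, because the text returns to the large responses of these genes in 1 or both lines. Each is the 300 bases from 250 before to 50 after the gene's start in RefSeq (build GRCh38.p14), written on the gene's own strand, with capitals marking the letters TGANTCA (the AP-1 motif) and TATAAA (the TATA box). Positions are those of a motif's first base relative to the start.

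IVL (involucrin), chr1:152908296-152908595, plus strand, AP-1 motif at -123 and TATA box at -30: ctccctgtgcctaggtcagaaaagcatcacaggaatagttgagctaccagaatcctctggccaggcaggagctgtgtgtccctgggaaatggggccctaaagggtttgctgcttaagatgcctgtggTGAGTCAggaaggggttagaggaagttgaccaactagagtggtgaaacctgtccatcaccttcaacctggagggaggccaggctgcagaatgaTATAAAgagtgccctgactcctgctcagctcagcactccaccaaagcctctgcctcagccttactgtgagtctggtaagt
SPRR3, chr1:153001499-153001798, plus strand, AP-1 motif at -170 and TATA box at -29: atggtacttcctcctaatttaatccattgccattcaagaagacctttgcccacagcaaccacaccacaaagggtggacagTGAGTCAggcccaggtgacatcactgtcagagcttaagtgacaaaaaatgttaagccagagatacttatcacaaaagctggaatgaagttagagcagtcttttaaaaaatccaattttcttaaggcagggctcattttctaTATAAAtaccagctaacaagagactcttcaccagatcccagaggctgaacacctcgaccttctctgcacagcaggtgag
SPRR1B, chr1:153030953-153031252, plus strand, with 2 AP-1 motifs and no TATA box of these letters: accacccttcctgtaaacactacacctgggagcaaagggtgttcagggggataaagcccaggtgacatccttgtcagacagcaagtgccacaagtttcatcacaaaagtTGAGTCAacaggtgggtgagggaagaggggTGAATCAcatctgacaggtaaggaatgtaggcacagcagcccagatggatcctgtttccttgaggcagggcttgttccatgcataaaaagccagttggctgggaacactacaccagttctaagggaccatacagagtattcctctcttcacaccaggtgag
SERPINB2, chr18:63887455-63887754, plus strand, AP-1 motif at -102 and TATA box at -30: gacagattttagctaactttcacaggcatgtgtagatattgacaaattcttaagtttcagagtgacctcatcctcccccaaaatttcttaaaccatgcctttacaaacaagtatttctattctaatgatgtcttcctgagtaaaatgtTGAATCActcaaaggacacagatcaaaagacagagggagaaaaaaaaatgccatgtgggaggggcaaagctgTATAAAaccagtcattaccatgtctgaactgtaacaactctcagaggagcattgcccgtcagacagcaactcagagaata
S100A8, chr1:153391024-153391323, minus strand, TATA box at -29 and no AP-1 motif of these letters: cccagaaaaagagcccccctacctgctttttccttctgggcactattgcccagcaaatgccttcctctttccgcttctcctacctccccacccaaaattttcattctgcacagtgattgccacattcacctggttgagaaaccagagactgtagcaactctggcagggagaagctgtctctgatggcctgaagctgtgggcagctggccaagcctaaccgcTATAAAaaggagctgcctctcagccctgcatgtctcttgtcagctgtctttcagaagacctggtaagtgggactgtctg
S100A9, chr1:153357604-153357903, plus strand, TATA box at -29 and no AP-1 motif of these letters: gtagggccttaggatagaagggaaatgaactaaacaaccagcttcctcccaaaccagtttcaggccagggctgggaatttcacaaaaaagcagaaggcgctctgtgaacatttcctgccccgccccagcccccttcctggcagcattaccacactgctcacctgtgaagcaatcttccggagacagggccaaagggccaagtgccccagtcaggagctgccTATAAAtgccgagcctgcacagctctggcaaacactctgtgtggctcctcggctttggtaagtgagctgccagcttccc
S100A7, chr1:153460602-153460901, minus strand, TATA box at -28 and no AP-1 motif of these letters: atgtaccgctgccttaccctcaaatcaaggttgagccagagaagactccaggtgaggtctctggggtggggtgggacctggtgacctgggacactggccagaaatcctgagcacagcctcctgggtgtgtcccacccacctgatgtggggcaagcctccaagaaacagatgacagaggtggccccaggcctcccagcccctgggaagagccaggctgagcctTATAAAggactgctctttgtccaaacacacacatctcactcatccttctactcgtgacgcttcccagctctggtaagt

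RefSeq promoters were at hand for 50 of the 60 members. CSTA, KLK1, KLK8, RHCG, SERPINB10, SERPINB11, SPRR2C, SPRR2D, SPRR2E and TGM1 had no entry. Searched on both strands, the AP-1 motif TGANTCA occurred in 18 of the 50 (36% of them), against 7.71% of all 35116 promoters of the same length. TATAAA occurred in 23 (46%, against 11.5%), and TTGCNNAA, the C/EBP motif, in 7 (14%, against 10.5%). The searched motifs did not overlap each other in the 7 promoters shown. AP-1 motifs were spread unevenly over the families: 6 of 8 SPRR promoters and 6 of 11 SERPINB promoters held one, 4 of 16 S100A promoters did, and none of the 13 KLK promoters did. These are matches of letters, and no binding was measured.

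Of the 60 members, 37 had enough counts to be tested in CAL-29 and 35 in 5637. The filter on low counts ran over all genes of a line and left 14682 genes in CAL-29 and 14367 in 5637. A gene is said here to have risen or fallen when edgeR's quasi-likelihood test gave it an adjusted p (Benjamini-Hochberg) below 0.05. In CAL-29, 11 members rose and 21 fell, against 34.3% of all tested genes that rose and 35.3% that fell. In 5637, 15 rose and 11 fell, against 35% and 35.6% of all tested genes. The median log2 fold change of the tested members was -0.48 in CAL-29 (all genes: -0.02) and 0.10 in 5637 (all genes: -0.01). At the study's stricter threshold, an unadjusted p below 1e-06, 7 members were up and 11 down in CAL-29, where 14.9% and 15% of all genes were. In 5637, 11 were up and 5 down, where 17.9% and 17.5% of all genes were. As shares of the members tested at adjusted p below 0.05, falls in CAL-29 lay above the share of all genes. Rises in 5637 lay above it by less, while rises in CAL-29 and falls in 5637 lay slightly below it. At the stricter threshold, rises and falls in CAL-29 and rises in 5637 lay above the share of all genes, and falls in 5637 lay below it. These shares were not tested against each other.

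The families divided as follows. Among S100A genes, 6 of 14 tested rose and 7 fell in CAL-29, and 5 of 12 rose and 3 fell in 5637. Among SPRR genes none of 4 rose and 2 fell in CAL-29, whereas 3 of 5 rose and none fell in 5637. Of the KLK genes, 1 of 6 rose and 5 fell in CAL-29, and 1 of 4 rose and 2 fell in 5637. Of the SERPINB genes, 2 of 9 rose and 5 fell in CAL-29, and 3 of 10 rose and 5 fell in 5637. No family moved as a block in both lines. Summed over its genes, the SPRR family went from 68.6 to 74.7 CPM per CAL-29 control library to 13.3 to 15.3 CPM after knockdown, while in 5637 it went from 7.05 to 8.41 CPM to 15.1 to 16.9 CPM. The SERPINB sum went from 329 to 333 CPM to 223 to 231 CPM in CAL-29, and from 533 to 569 CPM to 792 to 912 CPM in 5637. For both families the control and knockdown ranges stayed apart in each line and lay in opposite order. SPRR3 in CAL-29 (54.3 to 59.2 CPM with siCtrl and 7.64 to 8.73 CPM after knockdown) and SERPINB2 in 5637 (207 to 242 CPM and 450.5 to 556 CPM) made up most of the respective differences, and 5 of the 10 SERPINB genes tested in 5637 fell.

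Of the 29 members tested in both lines, 20 passed in both. Of these 20, 11 moved the same way and 9 (45%) moved in opposite directions. Over all genes, 7411 passed in both lines and 1355 of them (18.3%) moved in opposite directions. Those that fell in CAL-29 and rose in 5637 were S100A2, S100A11, S100A16, SPRR1B, SERPINB2, SERPINB5 and TGM1. S100A7 and S100A8 rose in CAL-29 and fell in 5637. The difference itself was tested in a joint fit of all 12 libraries, where a response had to differ by more than 1.5-fold (edgeR glmTreat). It did for 20 of the 41 members in that fit, 11 higher and 9 lower in 5637, against 4.98% and 5.77% of the 15411 genes. When libraries were scaled by their total counts, and not by TMM, this shifted the median difference over all genes from -0.04 to -0.16 on the log2 scale. Of all genes called, the share with the higher response in 5637 then fell from 46.3% to 31.7%, and 9 members were called higher and 9 lower.

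**Figure D1:**
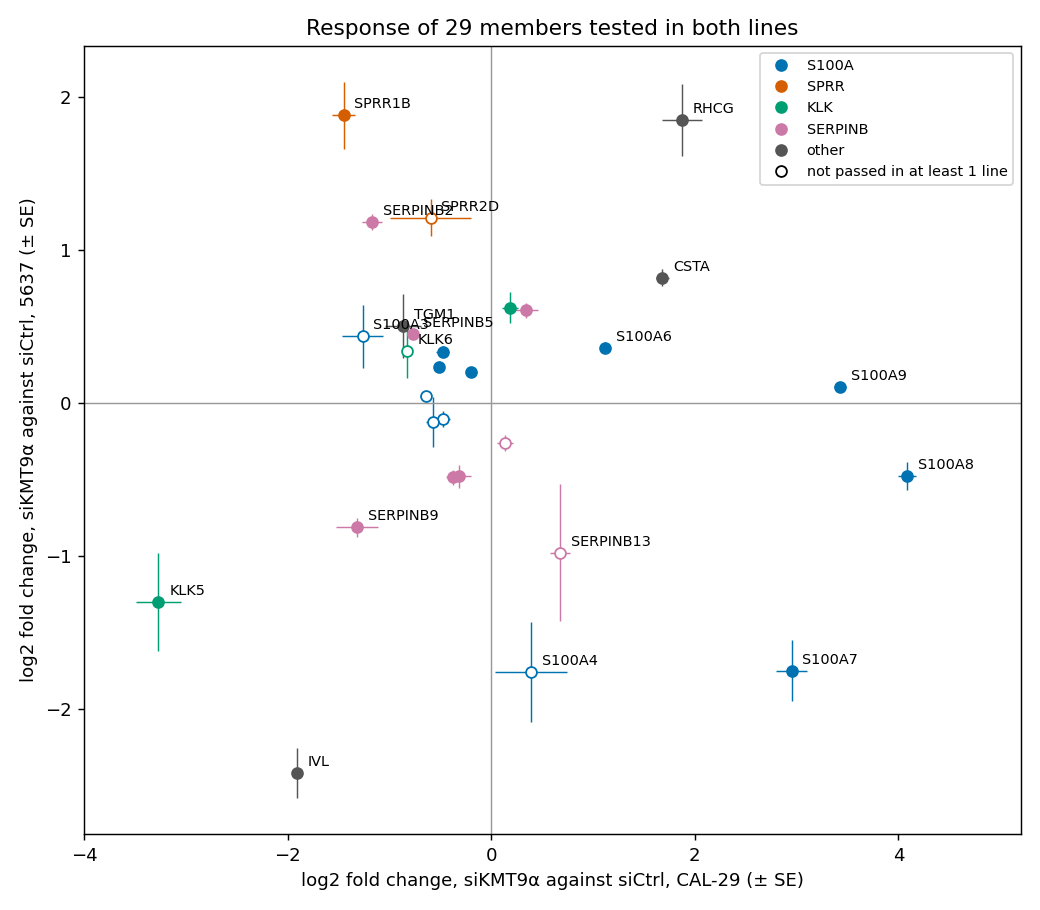
Log2 fold change of siKMT9α against siCtrl in CAL-29 (horizontal axis) and 5637 (vertical axis) for the 29 members tested in both lines, with standard errors, coloured by family. Filled points passed in both lines. S100A8 and S100A7 lie at the lower right, and SPRR1B and SERPINB2 at the upper left.

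The largest differences between the lines were in the inflammatory S100A genes. S100A8 and S100A9 encode the subunits of calprotectin, a calcium- and zinc-binding protein known from neutrophils and stressed keratinocytes. S100A8 was at 3.87, 4.14 and 3.51 CPM in the CAL-29 controls and at 60.3, 67.6 and 67.5 CPM after knockdown. All 3 knockdown libraries lay far above the controls, a rise of 4.08 on the log2 scale (SE 0.09, adjusted p = 3.92e-19), or 16.9-fold. In 5637 the controls were at 14.42, 14.96 and 14.15 CPM and the knockdown libraries lower, at 8.39, 11.2 and 11.5 CPM, without overlap (log2 fold change -0.48, SE 0.09, adjusted p = 4.5e-05). The responses differed by -4.57 (SE 0.14, glmTreat adjusted p = 5.69e-20), the difference being that of 5637 minus that of CAL-29 here and throughout.

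S100A9, the calprotectin partner, went from 34.0, 34.8 and 29.5 CPM to 339, 352 and 367 CPM in CAL-29, a rise of 10.8-fold (log2 fold change 3.43, SE 0.06, adjusted p = 8.39e-20). In 5637 it was already abundant, with 633, 650.0 and 681 CPM in controls and 705, 706 and 698 CPM after knockdown. That small rise of 1.07-fold passed (adjusted p = 0.00466) although not with total count scaling (adjusted p = 0.124). The knockdown libraries of CAL-29 thus stayed below every 5637 library, and the responses differed by -3.34 (SE 0.07, glmTreat adjusted p = 2.82e-23). Per kilobase of transcript, S100A9 was the most abundant member in 5637 siCtrl at 1166 CPM per kb and went from rank 12 to rank 2 among the members in CAL-29, from 55.6 to 606 CPM per kb.

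S100A7 (psoriasin), an antimicrobial and chemotactic protein of inflamed skin, had 1.61, 2.91 and 1.64 CPM in the CAL-29 controls and 16.7, 15.3 and 16.2 CPM after knockdown. It rose 7.73-fold (adjusted p = 6.61e-13). The 5637 libraries went the other way, from 3.13, 2.99 and 2.92 CPM to 1.01, 0.941 and 0.706 CPM, a fall of 3.36-fold (adjusted p = 8.21e-09). The groups did not overlap in either line, and the responses differed by -4.72 (SE 0.26, glmTreat adjusted p = 4.19e-14), the widest gap among the members apart from genes whose fold rests on libraries at or near 0. Its close relative S100A7A rose in CAL-29 from 0.489, 0.625 and 0.453 CPM to 1.61, 2.47 and 2.72 CPM (log2 fold change 2.11, SE 0.30, adjusted p = 2.42e-06). In 5637 S100A7A was at 0.0328 to 0.399 CPM and was not tested within the line. S100A12, a neutrophil calgranulin, rose in CAL-29 from 0.122, 0.0781 and 0.0756 CPM to 0.925, 0.930 and 0.736 CPM (adjusted p = 4.35e-06), which is still under 1 CPM.

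Because neutrophils and monocytes express S100A8, S100A9 and S100A12, immune markers were read beside them. PTPRC, CD3E, CD14 and LYZ together summed to 1.43 to 2.18 CPM in CAL-29 siCtrl and 3.28 to 3.38 CPM after knockdown, where CD3E was at 0. In 5637 they summed to 0.947 to 1.06 CPM and 0.624 to 1.12 CPM, with CD3E at 0 in every library. Of these, CD14 alone had enough counts to be tested. It rose by 0.90 on the log2 scale in CAL-29 and did not pass in 5637 (adjusted p = 0.408). The endothelial markers PECAM1 and CDH5 summed to 0.586 to 0.917 CPM and 3.55 to 4.10 CPM in CAL-29, and to 1.04 to 1.53 CPM and 0.0185 to 0.131 CPM in 5637. The fibroblast markers DCN, LUM, PDGFRA and PDGFRB summed to at most 1.60 CPM in CAL-29 and 2.87 CPM in 5637. S100A9 alone went from at most 34.8 CPM to at least 339 CPM in CAL-29. The part that markers of other cell types, or the lower epithelial sum, had in the members' changes was not tested.

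S100A6 (calcyclin), linked to proliferating cells, rose in both lines. It went from 61.5, 67.8 and 64.6 CPM to 136, 146 and 139.9 CPM in CAL-29 and from 181, 204 and 192 CPM to 241, 252 and 248 CPM in 5637. The groups stayed apart in each line, and the rise was larger in CAL-29 (2.17-fold, adjusted p = 5.44e-14) than in 5637 (1.29-fold, adjusted p = 1.22e-09), with a difference of -0.77 (glmTreat adjusted p = 0.00935).

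The S100A genes of epithelial cells that lie next to these on chromosome 1 behaved differently. S100A2, a calcium-binding protein of basal epithelia and a target of p63, was at 192, 225 and 233 CPM in CAL-29 controls and at 151, 168 and 148 CPM after knockdown. It rose in 5637, from 348, 398 and 367 CPM to 457, 465 and 484 CPM. The libraries separated in each line, in opposite order (log2 fold change -0.48, adjusted p = 1.1e-06 in CAL-29 and 0.34, adjusted p = 5.47e-09 in 5637), with a difference of 0.80 (SE 0.08, glmTreat adjusted p = 0.0181). S100A16 went from 173, 186 and 182 CPM to 130.4, 125 and 123 CPM in CAL-29 and from 201, 208 and 209 CPM to 229.8, 249.6 and 249.5 CPM in 5637. These opposite shifts (log2 fold change -0.51 and 0.24) differed by 0.73 (glmTreat adjusted p = 0.0244). Under total count scaling the difference lost its call for both S100A16 (adjusted p = 0.567) and S100A2 (adjusted p = 0.236). Leaving out 1 library also ended the call of S100A16 in 6 of 12 fits (0.71 to 0.72, adjusted p = 0.0624 to 0.0821), namely those without CAL-29 siCtrl 2, CAL-29 siKMT9α 2 or 3, 5637 siCtrl 1 or 5637 siKMT9α 2 or 3. For S100A2 the 6 fits (0.74 to 0.77, adjusted p = 0.0526 to 0.0713) were those without CAL-29 siCtrl 2 or 3, CAL-29 siKMT9α 1 or 3, 5637 siCtrl 1 or 5637 siKMT9α 3.

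S100A10, the light chain of the annexin A2 complex, had 349.7, 391 and 399 CPM in CAL-29 controls and 238, 257 and 234 CPM after knockdown, a fall of 1.56-fold (adjusted p = 1.5e-09). Its 5637 libraries overlapped, at 319, 337 and 331 CPM against 335, 346 and 339 CPM (adjusted p = 0.168). S100A11, which binds annexin A1 and is found in the cornified envelope, was the most abundant member per kilobase in CAL-29 siCtrl, at 1200.3 CPM per kb. It went from 636, 724 and 723 CPM to 612, 615 and 591 CPM in CAL-29 and from 605, 647 and 648 CPM to 707, 746 and 732 CPM in 5637. Both changes were small (-0.20 and 0.20 on the log2 scale) and passed (adjusted p = 0.00285 and 3.21e-06), the first no longer so under total count scaling (adjusted p = 0.0589).

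S100A3, known from the hair cuticle, fell in CAL-29 from 4.91, 3.46 and 3.31 CPM to 1.80, 1.51 and 1.49 CPM (2.40-fold, adjusted p = 1.48e-05). In 5637 it was at 1.89, 1.04 and 1.74 CPM and at 2.02, 2.29 and 2.10 CPM, which did not pass (adjusted p = 0.059, or 0.0258 without the first control), and the responses differed by 1.69 (glmTreat adjusted p = 0.00158). S100A4, associated with motility and metastasis, was low in both lines. Its CAL-29 groups overlapped, at 0.938, 0.488 and 0.605 CPM against 1.23, 0.564 and 0.875 CPM (adjusted p = 0.339). In 5637 it fell from 0.843, 1.20 and 1.19 CPM to 0.393, 0.314 and 0.230 CPM (3.38-fold, adjusted p = 2.79e-05), and the responses differed by -2.16 (SE 0.50, glmTreat adjusted p = 0.00823). S100A13 and S100A14 fell in CAL-29 (log2 fold change -0.48 and -0.57) and did not pass in 5637 (adjusted p = 0.0875 and 0.507).

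Involucrin, the scaffold precursor of the envelope, fell in both lines. IVL was at 257, 263 and 268 CPM in the CAL-29 controls and at 66.1, 72.2 and 71.7 CPM after knockdown. In 5637 it was much lower to begin with, at 5.76, 6.23 and 7.62 CPM, and went to 1.01, 1.29 and 1.35 CPM. The groups were far apart in both lines, with a fall of 3.75-fold in CAL-29 (log2 fold change -1.91, SE 0.05, adjusted p = 1.15e-17) and of 5.35-fold in 5637 (log2 fold change -2.42, SE 0.16, adjusted p = 1.84e-13). The difference of -0.53 was not shown to exceed 1.5-fold (glmTreat adjusted p = 1), though a test of any difference passed (adjusted p = 0.00814).

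The SPRR genes, whose small proline-rich products bridge other envelope proteins, split by line. SPRR3, an SPRR of internal squamous epithelia such as the oesophagus, fell in CAL-29 from 54.3, 58.5 and 59.2 CPM to 7.89, 7.64 and 8.73 CPM, 7.11-fold (log2 fold change -2.83, SE 0.07, adjusted p = 1.18e-17). It was listed at 0 in all 3 siCtrl libraries of 5637, with 1.5 counts over the 3 knockdown libraries, and was not tested there. SPRR1B, a major SPRR of squamous keratinocytes, fell in CAL-29 from 13.03, 14.32 and 12.70 CPM to 4.58, 4.71 and 5.39 CPM, and rose in 5637 from 0.904, 1.33 and 0.589 CPM to 2.85, 3.73 and 3.79 CPM. The lines were 13.5-fold apart with siCtrl, and after knockdown every 5637 library still lay below every CAL-29 library but by far less. Both changes passed (2.73-fold down, adjusted p = 3.77e-10, and 3.69-fold up, adjusted p = 1.27e-08), and the responses differed by 3.32 (SE 0.25, glmTreat adjusted p = 1.14e-10).

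SPRR2D and SPRR2A, members of the SPRR2 cluster, were measured mainly in 5637. SPRR2D rose there from 2.85, 3.23 and 3.30 CPM to 6.73, 7.72 and 7.35 CPM (2.32-fold, adjusted p = 5.24e-10), while in CAL-29 it was at 0.469, 0.567 and 0.586 CPM and at 0.438, 0.427 and 0.199 CPM (adjusted p = 0.193). The difference was 1.79 (glmTreat adjusted p = 0.00498). SPRR2A rose in 5637 from 2.33, 2.71 and 2.30 CPM to 4.74, 4.62 and 4.43 CPM (1.88-fold, adjusted p = 1.64e-06). SPRR2E (0.41 on the log2 scale) and SPRR2F (-0.58) did not pass in 5637, nor did SPRR1A in CAL-29 (-0.89, adjusted p = 0.0757). The SPRR2 genes are near copies: of all 100-base windows, 21.5% of SPRR2A, 12.4% of SPRR2E and 7.44% of SPRR2D also occur in another SPRR2 gene, so reads may have been shared between them.

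TGM1, the transglutaminase that cross-links the envelope, fell in CAL-29 from 3.38, 4.16 and 4.31 CPM to 2.24, 2.21 and 2.03 CPM (1.82-fold, adjusted p = 0.000197). In 5637 it was at 1.49, 1.61 and 0.996 CPM and at 1.93, 1.86 and 1.97 CPM, a change of 0.51 on the log2 scale (adjusted p = 0.0324). That call was lost without control library 3 (0.32, adjusted p = 0.205) and without any 1 of the knockdown libraries (adjusted p = 0.0539 to 0.0801), and also with DESeq2 (adjusted p = 0.111) and under total count scaling (adjusted p = 0.0565). The responses differed by 1.36 (glmTreat adjusted p = 0.0111), or by 1.16 without control library 3 (adjusted p = 0.0571). CSTA, cystatin A, an inhibitor of cysteine cathepsins and an envelope component, rose in both lines, from 26.0, 30.6 and 31.2 CPM to 93.6, 97.7 and 90.7 CPM in CAL-29 and from 30.1, 36.2 and 31.6 CPM to 59.3, 57.4 and 55.9 CPM in 5637. The groups did not overlap, and the rise was 3.21-fold in CAL-29 (adjusted p = 3.27e-15) and 1.76-fold in 5637 (adjusted p = 1.46e-13), a difference of -0.88 (glmTreat adjusted p = 0.00384). RHCG, an ammonia channel of differentiated squamous epithelium, also rose in each line. It went from 1.37, 0.957 and 1.21 CPM to 4.32, 4.80 and 3.94 CPM in CAL-29 (3.67-fold, adjusted p = 4.76e-08) and from 0.690, 1.04 and 0.491 CPM to 2.88, 2.97 and 2.25 CPM in 5637 (3.61-fold, adjusted p = 5.52e-08). The difference was -0.04 with a standard error of 0.35.

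**Figure D2:**
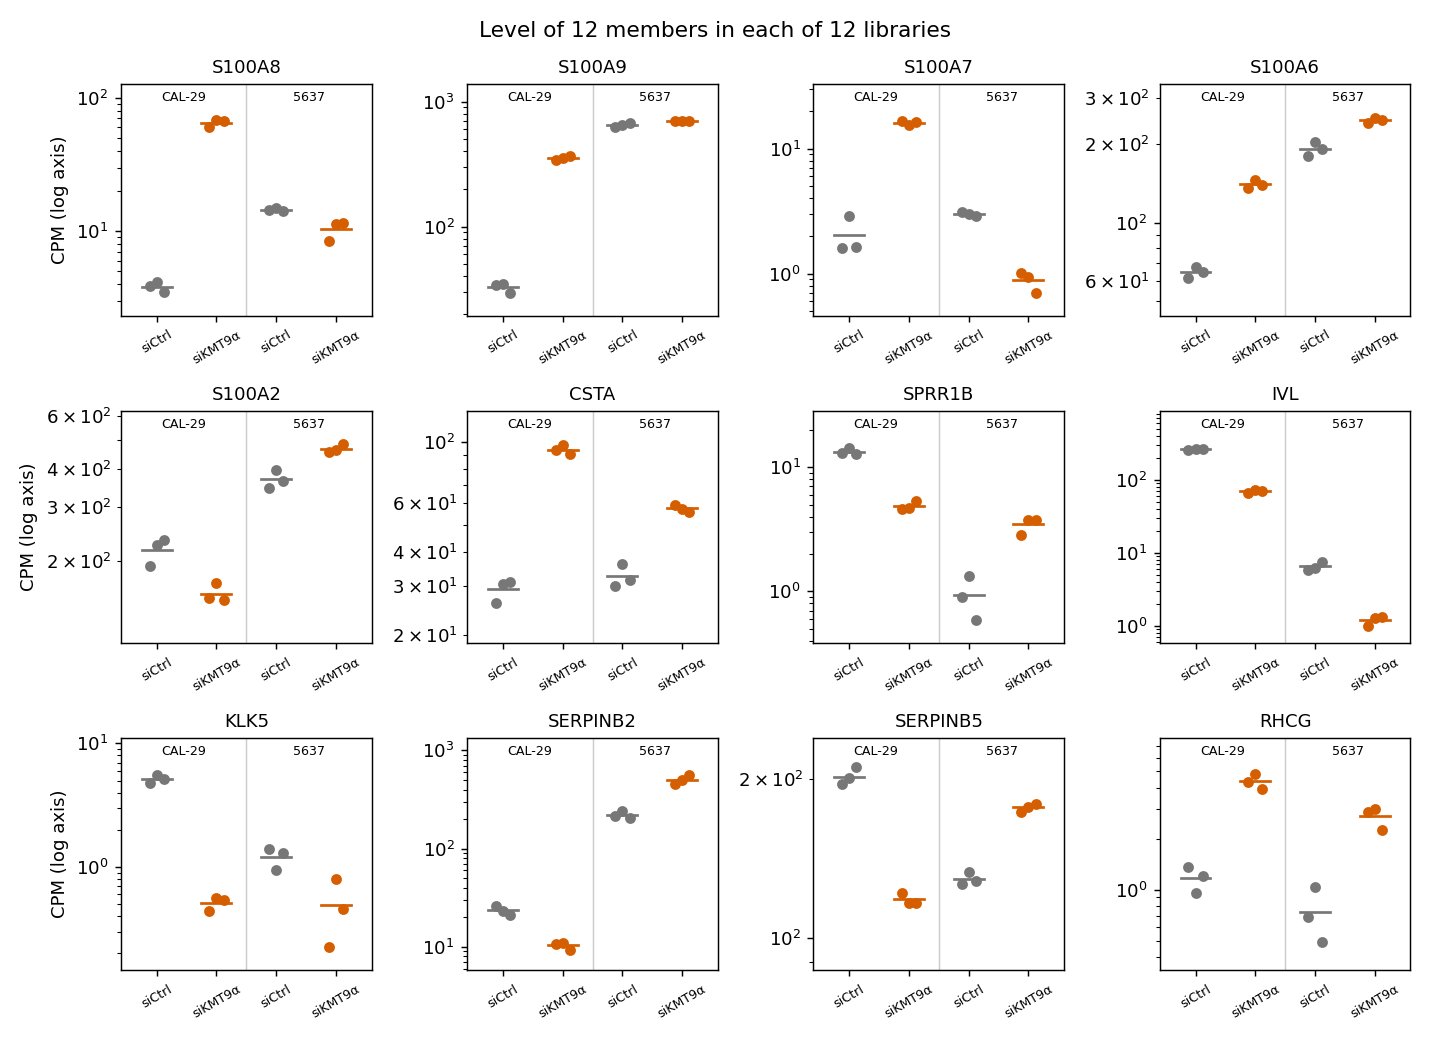
CPM (log axis, a different range in each panel) of 12 members in each of the 12 libraries, siCtrl in grey and siKMT9α in orange, with CAL-29 left and 5637 right in each panel. Points are libraries and bars are means of 3. S100A8 and S100A7 rise on the left and fall on the right, SPRR1B, SERPINB2 and S100A2 do the reverse, and CSTA and RHCG rise and IVL and KLK5 fall in both.

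The kallikreins are secreted serine proteases of the shedding epithelium. KLK5, which starts the cascade that loosens corneocytes, fell in both lines. It went from 4.75, 5.55 and 5.14 CPM to 0.438, 0.564 and 0.537 CPM in CAL-29, 9.66-fold (log2 fold change -3.27, SE 0.22, adjusted p = 3.04e-11). In 5637 it went from 1.395, 0.947 and 1.304 CPM to 0.225, 0.794 and 0.460 CPM, 2.47-fold, with no overlap (adjusted p = 0.00075). The difference of 1.95 passed (glmTreat adjusted p = 0.00682) but rested on 1 library: without 5637 siKMT9α 2 it was 1.44 (adjusted p = 0.134). KLK6, a trypsin-like kallikrein, was among the abundant members of CAL-29 and fell there from 150.1, 146 and 147 CPM to 83.8, 81.6 and 84.6 CPM (1.77-fold, adjusted p = 1.39e-12). In 5637 it was at 2.42, 2.23 and 1.98 CPM and at 2.66, 3.62 and 2.18 CPM, which overlapped (adjusted p = 0.092, or 0.022 without knockdown library 3), and the responses differed by 1.15 (glmTreat adjusted p = 0.00141).

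KLK7, the chymotrypsin-like partner of KLK5, and its neighbours KLK8 and KLK9 were tested in CAL-29 alone and fell by 1.17, 0.72 and 0.88 on the log2 scale (adjusted p = 0.00122, 0.00212 and 0.0047). Of the exon bases of KLK9, 99.2% are covered by transcripts annotated across KLK8, so those counts cannot be assigned with certainty. KLK10 was at 25.2, 23.9 and 20.1 CPM in CAL-29 controls and at 25.1, 26.1 and 27.5 CPM after knockdown, overlapping, and its adjusted p of 0.0461 was lost without library 2 or 3 of either group (adjusted p = 0.0508 to 0.255). In 5637 it rose from 6.31, 5.33 and 6.02 CPM to 8.84, 9.08 and 9.34 CPM (1.54-fold, adjusted p = 2.92e-06). KLK1, tissue kallikrein, was tested in 5637 alone, where it fell by 0.94 on the log2 scale at under 1 CPM (adjusted p = 0.046).

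The SERPINB genes encode intracellular protease inhibitors. SERPINB2 (plasminogen activator inhibitor 2), an inhibitor of urokinase, moved in opposite directions. In CAL-29 it went from 26.4, 23.0 and 21.1 CPM to 10.76, 10.99 and 9.30 CPM, and in 5637 from 214, 242 and 207 CPM to 450.5, 501 and 556 CPM. The fall in CAL-29 was 2.26-fold (adjusted p = 8.95e-10) and the rise in 5637 2.27-fold (adjusted p = 1.17e-17), which differed by 2.34 on the log2 scale (SE 0.12, glmTreat adjusted p = 8.74e-14). SERPINB5 (maspin), an epithelial serpin without inhibitory activity, was at 195, 201 and 211 CPM in CAL-29 controls and at 122, 117 and 117 CPM after knockdown, whereas in 5637 it went from 126, 133 and 128 CPM to 173, 177 and 179 CPM. Thus CAL-29 began above 5637 and ended below it, with a difference of 1.21 (SE 0.06, glmTreat adjusted p = 7.82e-11).

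SERPINB13 (headpin), an inhibitor of cathepsins L and K found in squamous keratinocytes, rose in CAL-29 from 11.5, 9.83 and 9.20 CPM to 15.2, 17.5 and 16.0 CPM (1.60-fold, adjusted p = 4.43e-06). It was at 0.429, 0.305 and 0.449 CPM and 0.262, 0.185 and 0.164 CPM in 5637 (adjusted p = 0.053), and the responses differed by -1.67 (glmTreat adjusted p = 0.0189). Without 5637 siCtrl 3 or 5637 siKMT9α 2 or 3 that difference was -1.62 to -1.53 and lost its call (adjusted p = 0.0513 to 0.0719). SERPINB9, the granzyme B inhibitor, fell in both lines, from 4.93, 3.50 and 3.63 CPM to 1.98, 1.36 and 1.45 CPM in CAL-29 (adjusted p = 1.01e-05) and from 36.6, 37.3 and 36.4 CPM to 21.6, 23.0 and 18.3 CPM in 5637 (adjusted p = 5.01e-12). SERPINB8, an inhibitor of furin, rose in both. Its CAL-29 groups stayed apart, at 9.81, 8.09 and 7.69 CPM against 10.3, 11.4 and 10.8 CPM (1.27-fold, adjusted p = 0.00937), as did those of 5637, at 41.9, 44.3 and 42.4 CPM against 61.3, 65.1 and 69.1 CPM (1.52-fold, adjusted p = 4.48e-12).

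Of the other serpins, SERPINB6 and SERPINB7 fell in both lines, by 0.32 to 0.49 on the log2 scale, and SERPINB1, an inhibitor of neutrophil elastase, fell in 5637 by 0.26 but did not pass in CAL-29 (adjusted p = 0.119). SERPINB3 and SERPINB4, the squamous cell carcinoma antigens, were under 0.5 CPM in every library of either line. SERPINB3 fell in 5637 by 1.14 (adjusted p = 0.032). SERPINB4 was at 0.307, 0.433 and 0.351 CPM against 0.412, 0.111 and 0.263 CPM in 5637 (adjusted p = 0.329) and at 0.0408, 0 and 0 CPM against 0.130, 0.427 and 0.0596 CPM in CAL-29, so the difference of -4.23 called in the joint fit (glmTreat adjusted p = 0.0255) rests on a near-empty control group and gives no bound on the fold. It was lost without CAL-29 siCtrl 2 or 3, CAL-29 siKMT9α 2 or 5637 siKMT9α 2 (-3.88 to -3.19, adjusted p = 0.0537 to 0.221). The same holds for SPRR3 (difference 5.54, glmTreat adjusted p = 0.0461), which was at 0 in 5637 siCtrl and lost its call in 9 of the 12 fits without 1 library (5.18 to 5.54, adjusted p = 0.0540 to 0.205), all but those without CAL-29 siCtrl 1, CAL-29 siKMT9α 3 or 5637 siKMT9α 2. SERPINB10 did not pass in CAL-29 (adjusted p = 0.343).

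The remaining 17 members had too few counts in both lines to be tested. CRNN (cornulin), KLK2 and KLK3 had no count in any of the 12 libraries, which allows at most 3 counts per group of 3 libraries, or 0.0381 CPM in CAL-29 siCtrl. KLK4, KLK11, KLK12, KLK13, KLK14, KLK15, S100A1, S100A5, SERPINB11, SERPINB12, SPRR2B, SPRR2C, SPRR2G and SPRR4 had no more than 71.5 counts summed over the 6 libraries of either line, the total of KLK14 in CAL-29. Such intervals and floors cover counting error only. Of the exon bases of S100A1, 50.4% are covered on the opposite strand by S100A13 and other annotated transcripts together. The study's methods give default settings for the counting and do not spell out the strand.

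With siCtrl alone many members already differed between the lines, as did many other genes. Of the 41 members in the joint fit, 13 were over 1.5-fold higher in 5637 and 14 lower (glmTreat, adjusted p below 0.05). Among all genes, 25.6% were higher and 25.9% lower. The members' shares lay moderately above these and were not tested against them. KLK7, KLK8, KLK9, SPRR1A, SPRR3, SPRR2A, SPRR2F and SERPINB4 had enough counts to be tested only within the line where they were higher. CAL-29 held far more KLK6 (63.5-fold, adjusted p = 5.26e-30), IVL (38.1-fold, adjusted p = 1.3e-30), SERPINB13 (23.9-fold, adjusted p = 9.4e-19), S100A14 (19.5-fold, adjusted p = 1.73e-23) and SPRR1B (13.5-fold, adjusted p = 1.01e-16). SPRR3 was at least 1815-fold lower in 5637 siCtrl than in CAL-29 siCtrl, and KLK7 at least 57.9-fold lower, both against a floor of 3 counts over the group. In the other direction, 5637 held more S100A9 (21.0-fold, adjusted p = 1.3e-30), SERPINB2 (9.88-fold, adjusted p = 5.46e-24) and S100A8 (3.96-fold, adjusted p = 2.19e-13). The SPRR2 genes SPRR2F (32.2-fold), SPRR2A (8.44-fold) and SPRR2D (5.82-fold) and the inhibitors SERPINB9 (9.60-fold) and SERPINB8 (5.27-fold) were also higher in 5637. The fold of SPRR2F rests on a near-empty group, at 0, 0 and 0.0378 CPM in CAL-29 siCtrl, and gives no bound. SPRR2A was low there too, at 0.163 to 0.488 CPM. Envelope genes were thus split, with IVL, SPRR1B and SPRR3 higher in CAL-29 and SPRR2 genes in 5637.

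**Figure D3:**
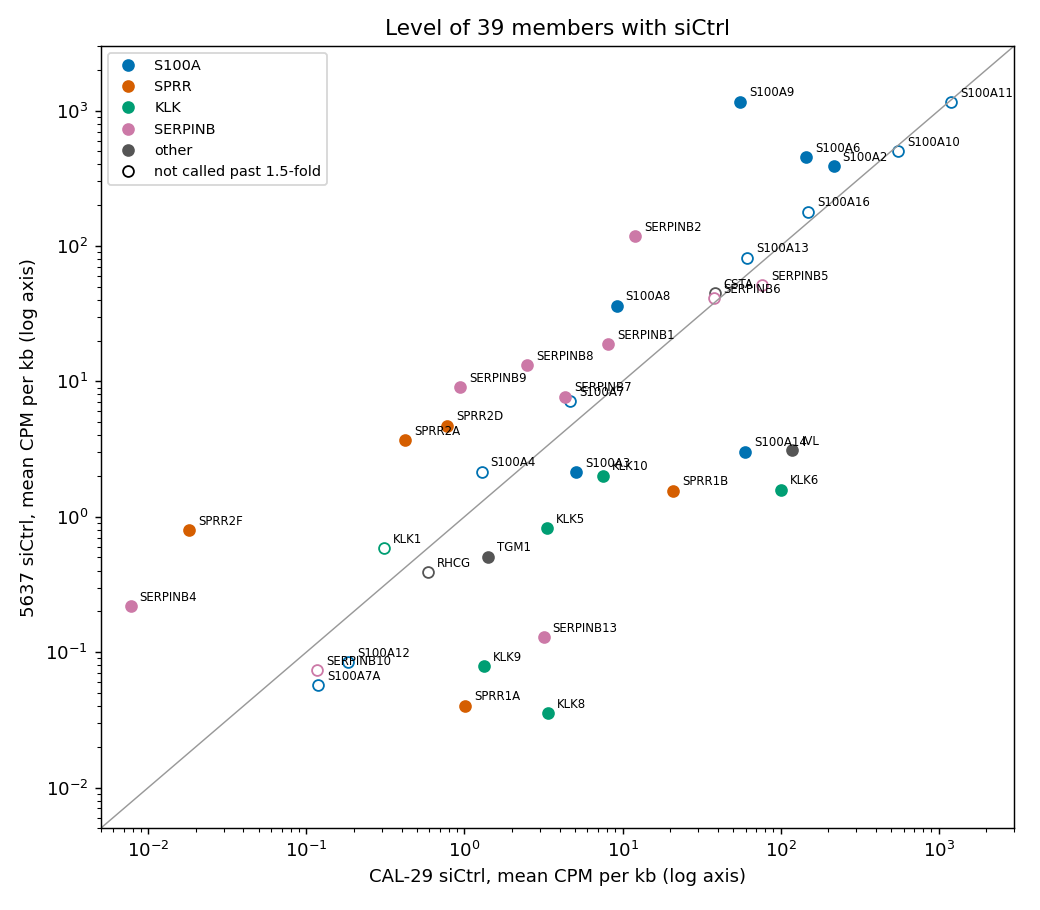
Mean CPM per kilobase of transcript with siCtrl in CAL-29 (horizontal, log axis) and 5637 (vertical, log axis) for 39 members, with the line of equality. Filled points differ by more than 1.5-fold under glmTreat. KLK6 and IVL lie far below the line and S100A9 and SERPINB2 above it, while S100A10 and S100A11 lie near it at the top. KLK7 and SPRR3, at 0 in 5637, are left out.

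Most members sit in 3 gene clusters, with 29 on chromosome 1, 15 on chromosome 19 and 10 on chromosome 18. In parts of them, neighbouring members changed in the same direction in CAL-29. The stretches named next, and their ends, were picked after the values were seen, so their counts are a description and were not tested. Over all tested genes, 34.3% rose and 35.3% fell in CAL-29, and 35% rose and 35.6% fell in 5637. On chromosome 1 (build GRCh37), the 178 kb from S100A9 to S100A6 (153330330 to 153508720) hold S100A9, S100A12, S100A8, S100A7A, S100A7 and S100A6, and all 6 rose in CAL-29. In 5637, S100A9 and S100A6 rose and S100A8 and S100A7 fell. In the next 84.0 kb, from S100A3 to S100A13 (153519805 to 153603836), all 5 tested members fell in CAL-29 and 2 rose in 5637. S100A4, whose span lies between the stretches and overlaps the latter, was counted in neither. It did not pass in CAL-29 (0.39 on the log2 scale) and fell in 5637 (-1.76). On the other side, in the 1168 kb from S100A10 to SPRR2G (151955391 to 153123366), none of 7 tested members rose and 5 fell in CAL-29, whereas 4 of 8 rose and 1, IVL, fell in 5637. Of the other genes tested in this stretch, 2 of 4 fell and none rose in CAL-29, and 1 of 3 rose and none fell in 5637. On chromosome 19, the 66.3 kb from KLK5 to KLK9 (51446559 to 51512890) hold 5 members, all of which fell in CAL-29. As given above, the counts of KLK9 cannot be told apart with certainty from those of KLK8. In 5637, 2 of the 5 were tested and 1, KLK5, fell.

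**Figure D4:**
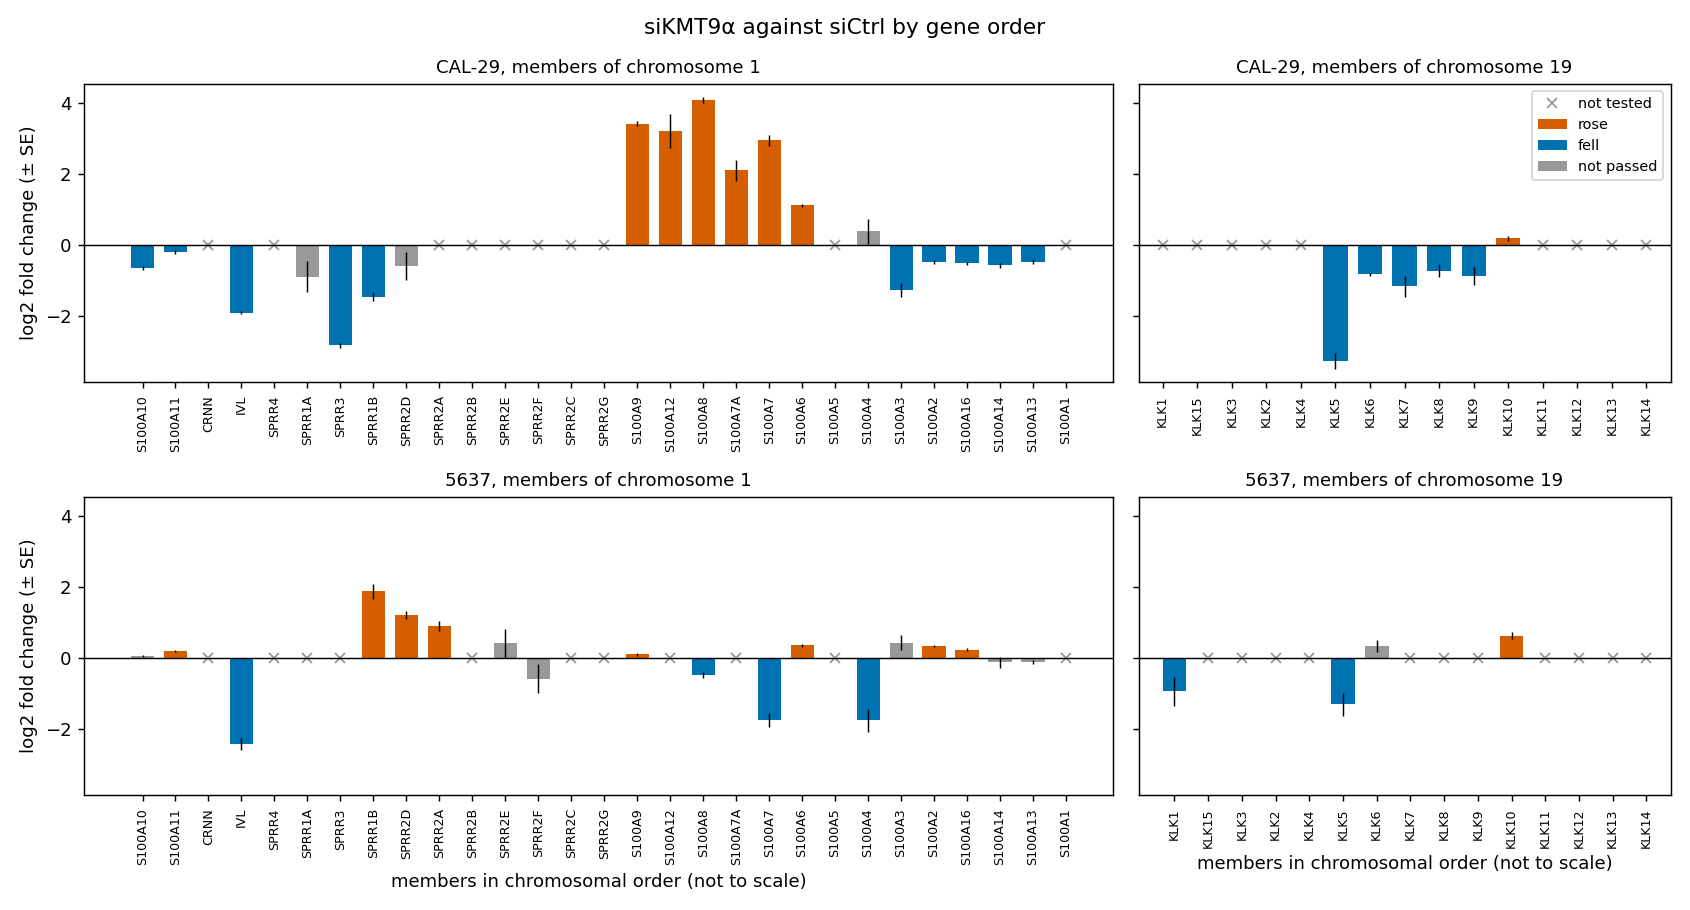
Log2 fold change of siKMT9α against siCtrl, with standard errors, for the members of chromosomes 1 and 19 in chromosomal order (not to scale), CAL-29 above and 5637 below. Orange bars rose, blue bars fell, grey bars did not pass and crosses were not tested. In CAL-29 all 6 orange bars of chromosome 1 lie in the run from S100A9 to S100A6.

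Read against the calls, promoters with the AP-1 motif made up 3 of 9 that had an entry among the members that rose in CAL-29 and 8 of 19 among those that fell. In 5637 they made up 6 of 11 and 2 of 10. TATAAA was present in 7 of 9 that rose in CAL-29, S100A8 and S100A9 among them, and in 5 of 19 that fell. In 5637 the order was the reverse, with TATAAA in 4 of 11 that rose, SERPINB8 among them, and 5 of 10 that fell. The same shares over all genes that rose or fell were not taken, and a link of either motif with direction was not tested.

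Off-target sites of the siRNA were also looked for. The letters searched were ACATTCA, the complement of guide bases 2 to 8. The guide was taken as the strand complementary to the sequence the study lists as siKMT9α#1. They occurred in the annotated 3′ UTR of 2 of 37 tested members in CAL-29, where 15.1% of 13168 genes had them. In 5637 they occurred in 1 of 34, against 15.4% of 12937 genes. These shares were not adjusted for length, and the 3′ UTRs of members tested in CAL-29 ran from 62 bases (S100A7) to 3913 (S100A7A). Among the members tested, S100A7A and SERPINB8 held such a site, shown with 10 bases on each side and the site in capitals:
S100A7A, base 371 of the 3′ UTR: tcattcagacACATTCAgatactgcac
S100A7A, base 1939 of the 3′ UTR: tgtctcttagACATTCAgagggtgaac
SERPINB8, base 1481 of the 3′ UTR: ctgttaggccACATTCAtttagggatc
Both genes rose in CAL-29, and SERPINB8 rose in 5637 too. The study's text names siKMT9α#1 for the RNA-seq, whereas the tables call the siRNA si270 and the labels give no name.

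Other genes of squamous differentiation were read from lists, whose counts stand against 34.3% of all genes that rose and 35.3% that fell in CAL-29 and 35% and 35.6% in 5637. None of these counts was tested against those shares. Of 30 tested genes of the cornified envelope and keratinocyte differentiation, 8 rose and 13 fell in CAL-29 (median -0.22), and 8 of 21 rose and 7 fell in 5637 (median -0.01). PI3 (elafin) and SLPI, secreted inhibitors of elastase, rose in both lines, by 2.44 and 1.92 on the log2 scale in CAL-29 and by 0.37 and 0.54 in 5637. CDSN (corneodesmosin), which joins corneocytes, and KRT13, a keratin of internal squamous epithelia, fell in both, by 2.09 and 1.76 in CAL-29 and by 1.27 and 0.74 in 5637.

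Among 25 tested transcription factors of squamous differentiation, 10 rose and 12 fell in CAL-29 and 10 rose and 7 fell in 5637. MAF fell by 2.68 in CAL-29 and by 1.91 in 5637, and GRHL3, a factor for epidermal barrier formation, also fell in both (log2 fold change -1.505 and -1.006). EHF rose in both lines (1.55 and 0.70), and ELF3 rose in CAL-29 (1.19) but fell in 5637 (-0.38). Of the families' partners, namely annexins, receptors, target proteases and inhibitors, 4 of 17 rose and 9 fell in CAL-29, and 6 of 18 rose and 7 fell in 5637. ANXA2, the partner of S100A10, fell by 1.31 and 0.66, and CTSK, a cathepsin inhibited by SERPINB13, by 1.34 and 0.48. PLAU, the urokinase that SERPINB2 inhibits, rose by 0.90 and 0.82, and its receptor PLAUR fell in CAL-29 (-0.64) and rose in 5637 (0.21).

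Of 16 basal-squamous bladder markers, 2 rose and 14 fell in CAL-29 (median -1.11), and 8 rose and 5 fell in 5637 (median 0.15). The keratins KRT16, KRT17, KRT6B and KRT14 fell in CAL-29 by 3.97, 3.05, 2.61 and 2.56 on the log2 scale. In 5637, KRT16, KRT17 and KRT14 fell (log2 fold change -0.712, -1.721 and -1.004) while KRT6B rose by 0.91. Of the other markers that passed in both lines, DSG3, COL17A1, DSC3, KRT6A and TP63 fell in CAL-29 and rose in 5637. Their rises in 5637 were 0.76, 0.62, 0.48, 0.47 and 0.36. GSDMC and CDH3 rose in both lines, and KRT5 and EGFR fell in both. Of the luminal markers, 4 of 20 rose and 11 fell in CAL-29 (median -0.22) and 2 of 17 rose and 15 fell in 5637 (median -0.61). The uroplakins UPK1B and UPK2 and the receptor FGFR3 fell in 5637 by 2.22, 2.03 and 1.80, and in CAL-29 by 0.52, 0.38 and 0.22. FOXA1 went the other way and rose in both lines (1.09 in CAL-29 and 0.59 in 5637). VGLL1, PPARG and UPK3B rose in CAL-29 and fell in 5637, and XBP1 did the reverse.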

How the data were processed

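Per the labels, 12 libraries were made from total RNA of CAL-29 and 5637 cells at day 3, 3 for each line and siRNA. The submitters' processing notes name STAR, HOMER, edgeR and the build hg19 (GRCh37). The authors deposited 1 table of estimated counts per line, with 37400 transcript rows and 23064 symbols, in which 37.3% of values are not whole. The tables also hold the authors' own comparisons (log2 fold changes, p-values and adjusted p-values), which were not used.

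From these, counts were rounded and the row with the most counts over a line's 6 libraries (all 12 in the joint fit) was kept per symbol. Tests were edgeR 4.0.16 quasi-likelihood fits in R 4.3.3, with TMM scaling, filterByExpr and Benjamini-Hochberg adjustment over all genes tested. Differences between lines used glmTreat with a fold of 1.5 on all 12 libraries. CPM are TMM-scaled, with the SE of a log2 fold change taken from the fit. CPM per kb used the length of the GENCODE canonical transcript (GRCh37 mapping), and gene positions are from the same annotation. Promoter sequences are from RefSeq. Values in every library are given for members tested in both lines that passed in 1 line with a log2 fold change of 0.58 or more in either direction, for those whose response differed between lines, and for the 3 most abundant per kilobase in each line. S100A12, SPRR2A and the markers fall outside that rule and were named after their values were seen. From each other list, at most 4 genes that passed in both lines, those with the largest changes, are given. Further basal-squamous and luminal markers that passed in both lines are named beside them, to show those that moved otherwise. The members and lists were chosen with earlier results of these data known.

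Libraries held 24479349 to 35151257 counts, and the biological coefficient of variation was 5.08% in CAL-29 and 3.34% in 5637. The fits were checked on simulated counts with known changes. Replicate numbers were checked, and the main fits did not pair the libraries by them. Alternatives were total count, DESeq2 1.42.0 and other filter settings, the replicate block and leaving out each library. A marker gene is not reported here.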

Additional observations from a re-analysis of the deposited data

Results flagged for a closer look

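For 20 members the response to siKMT9α differed by more than 1.5-fold between the lines in the joint edgeR glmTreat fit (adjusted p below 0.05). The differences are those of the log2 fold change in 5637 minus that in CAL-29. The response was higher in 5637 for SPRR3 (5.54), SPRR1B (3.32), SERPINB2 (2.34), KLK5 (1.95), SPRR2D (1.79), S100A3 (1.69), TGM1 (1.36), SERPINB5 (1.21), KLK6 (1.15), S100A2 (0.80) and S100A16 (0.73). It was lower in 5637 for S100A7 (-4.72), S100A8 (-4.57), SERPINB4 (-4.23), S100A7A (-3.43), S100A9 (-3.34), S100A4 (-2.16), SERPINB13 (-1.67), CSTA (-0.88) and S100A6 (-0.77). SPRR3 and SERPINB4 were at or near 0 in the control libraries of 5637 and CAL-29, respectively, so their sizes are not bounds. S100A7A was at 0.0328 to 0.399 CPM in 5637, where its groups overlapped and it was not tested within the line. Its difference is therefore imprecise and does not show a fall in 5637. The transfection reagent and siRNA concentration differed with the line, and their part in these differences cannot be told apart from that of the line.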

How the results depend on the processing

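For the 27 members that met the rule for values in every library, no call turned to the opposite direction under any setting run. The other members were checked through counts alone. With an unadjusted p below 1e-06 in place of the adjusted threshold, 7 members were up and 11 down in CAL-29 and 5 were down in 5637. With at least 10 counts in every library, 7 fell in 5637. These alternatives are stricter or test fewer genes by construction. The other counts over the members stayed within 1.5 times the value given, with DESeq2 giving 11 up and 21 down in CAL-29 and 14 and 9 in 5637. Leaving out 1 library gave 10 to 11 rises and 20 to 22 falls in CAL-29, 14 to 16 rises and 9 to 11 falls in 5637, and 8 to 12 responses higher and 8 to 10 lower in 5637. For siCtrl levels it gave 13 to 16 higher and 14 to 16 lower in 5637.

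Deviations of same-numbered libraries correlated weakly (-0.0115 to 0.0823), and those of differently numbered libraries ran from -0.0783 to 0.0339. The highest correlation of each line was that of its libraries numbered 1 (0.0823 in CAL-29 and 0.0647 in 5637). The main fits did not pair libraries, and whether same-numbered libraries were handled together is not known. With the replicate block, members rose and fell in the same numbers, 11 and 21 in CAL-29 and 15 and 11 in 5637, with 11 responses higher and 9 lower, and siCtrl levels stayed at 13 and 14. Over all genes it moved the calls from 10206 to 10440 in CAL-29, from 10143 to 10244 in 5637, and from 1657 to 1720 for the differing responses.

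Testing every transcript row, chosen after seeing the data, gave 11 and 21 in CAL-29. Using the longest transcript of a symbol was not run. Members under about 1 CPM, such as SERPINB3, SERPINB4, KLK1 and SPRR1A, rest on few counts, and their folds are imprecise.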

Other observations

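Epithelial markers mostly fell in both lines. Of 11 tested in CAL-29, 1 rose and 8 fell (median log2 fold change -0.74), and of 10 tested in 5637, 1 rose and 9 fell (median -0.57). The simple-epithelium keratins KRT8 and KRT18 fell by 1.45 and 1.31 on the log2 scale in CAL-29 and by 0.61 and 0.34 in 5637, and the basal keratin KRT5 fell by 1.25 and 0.28. CDH5, an endothelial cadherin, rose by 2.45 in CAL-29 and fell by 4.24 in 5637. The size of the fall rests on a near-empty group and gives no bound. PECAM1 and CDH5 together were at 0.0185 to 0.131 CPM in the 5637 knockdown libraries.

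Among genes that passed in both lines, 81.7% of all 7411 genes moved the same way. Of 13 basal-squamous markers, 7 moved the same way and 6 the opposite way. Of 11 other envelope and keratinocyte genes, 6 and 5 did. Of 15 squamous transcription factors, 11 moved the same way and 4 the opposite way, and of 10 partners of the families, 8 and 2 did. These small counts were compared neither with each other nor with the share of all genes.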
